A study of Mus musculus with 6 samples.

Results

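The immediate-early and heat shock genes described here are 32 genes of responses that cells can switch on rapidly. The stimulus can be mechanical or heat stress, or the enzymatic breakdown of a tissue. Some of the genes, such as Hspa8 and Hsp90ab1, are constitutive members of their families. The genes were taken by symbol from a fixed list, 24 immediate-early genes and 8 heat shock genes, and all 32 were found among the 22964 genes of the deposited table. The table holds RNA sequencing of CD45-CD31+PDPN+ cells, the lymphatic endothelial cells that form the walls of lymphatic vessels, taken by cell sorting out of the meninges of untreated wild-type male C57BL/6J mice. Young mice (2 to 3 months, 3 samples) were compared with old mice (20 to 24 months, 3 samples) to ask how age alters these cells. The mice came from Jackson Labs or from the NIH/NIA, and the labels do not say which samples came from which source, so a part of the source in any age difference was not tested. Nothing in the labels says whether a sample was 1 animal or a pool, so the p-values cover the scatter of these 6 samples alone, and that scatter may be technical. RNA was amplified linearly from small inputs before sequencing.

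Immediate-early genes need no new protein for their induction. Kinases of the MAPK families act on factors already bound at their promoters, such as SRF with its ELK partners and CREB, and transcription starts at once. The first products are transcription factors (the FOS and JUN proteins that pair into AP-1, the EGR zinc fingers and the NR4A orphan receptors), together with proteins that end the response, among them the DUSP phosphatases that switch kinases off and the ZFP36 proteins that destroy short-lived messages. Heat shock genes form a separate response, driven by HSF1, a factor that is held inactive until unfolded proteins draw its chaperones away. In endothelium, immediate-early genes are also known to answer to shear stress and growth factors.

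The libraries held 14285794 to 21043945 counts, with 17074 to 18949 genes at 1 count or more. Levels are given in CPM, read counts scaled to the normalised library size, for samples 1, 2 and 3 of each age in that order. All 9 lymphatic endothelial markers were present in every library, with a summed level of 10772 to 13383 CPM in the young and 16694 to 20341 CPM in the old samples. Markers of other cell types were present as well. The summed level of 12 macrophage and microglia markers was 834, 3378 and 4583 CPM for young replicates 1 to 3 and 815, 2235 and 1449.7 CPM for the old replicates, and of 9 fibroblast and arachnoid markers 8456, 6316 and 5524 CPM for young replicates 1 to 3 and 2806, 3106 and 3231 CPM for the old replicates. Among the macrophage markers Pf4 was at 0 in old sample 1 and Tyrobp at 0 in old sample 2, and Mrc1, which lymphatic endothelium also makes, gave 401 and 679 CPM of the sums in young sample 1 and old sample 1. In such bulk samples, fewer cells of a type and less RNA per cell cannot be told apart. Mitochondrial ribosomal RNA took 15.7% to 16.5% of the counts in the young and 16.0% to 21.9% in the old samples.

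No gene of the 32 was called different between the ages by edgeR's quasi-likelihood test with Benjamini-Hochberg adjustment over the 15394 genes tested, a call that 0% of all genes reached. The smallest adjusted p among them was 0.822 by edgeR. At an unadjusted p under 0.05 edgeR counted 2 of the 32, Fosl2 and Dnajb1, both higher in the old samples. That is 6.25% of the 32 genes, and 5.56% of all genes tested were counted by the same rule, 2.86% as higher and 2.7% as lower in the old samples. DESeq2, which called 0.844% of all genes after adjustment, called 0 of the 32. Without adjustment it counted 2 of the 32, against 1374 of all 15394 genes. By limma-voom, which called 0.0195% of all genes, 0 of the 32 were called. Without adjustment limma-voom counted 1 of the 32, Fosl2, against 983 of all 15394 genes. The young and old samples did not overlap for Fosl2 and Dnajb1 alone, 2 of 32 genes. Groups did not overlap for 12% of all genes tested, 5.56% with the old samples higher and 6.44% with the old samples lower. Log2 fold changes, old against young, were positive for 16 and negative for 16 genes, and positive for 51% of all genes. Their median was 0.13 over the 24 immediate-early genes, with an interquartile range of −0.31 to 0.32, and −0.18 over the 8 heat shock genes, with an interquartile range of −0.33 to 0.01. The median of all genes tested was 0.020. With library size as the only scaling the immediate-early median turned to −0.0096 while the median of all genes moved to −0.12. The immediate-early median was also negative without young sample 2 (−0.080), without old sample 1 (−0.024) and without young sample 1 and old sample 1 together (−0.10), and the heat shock median turned to 0.058 without young sample 3 and 0.064 without old sample 1.

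**Figure D1:**
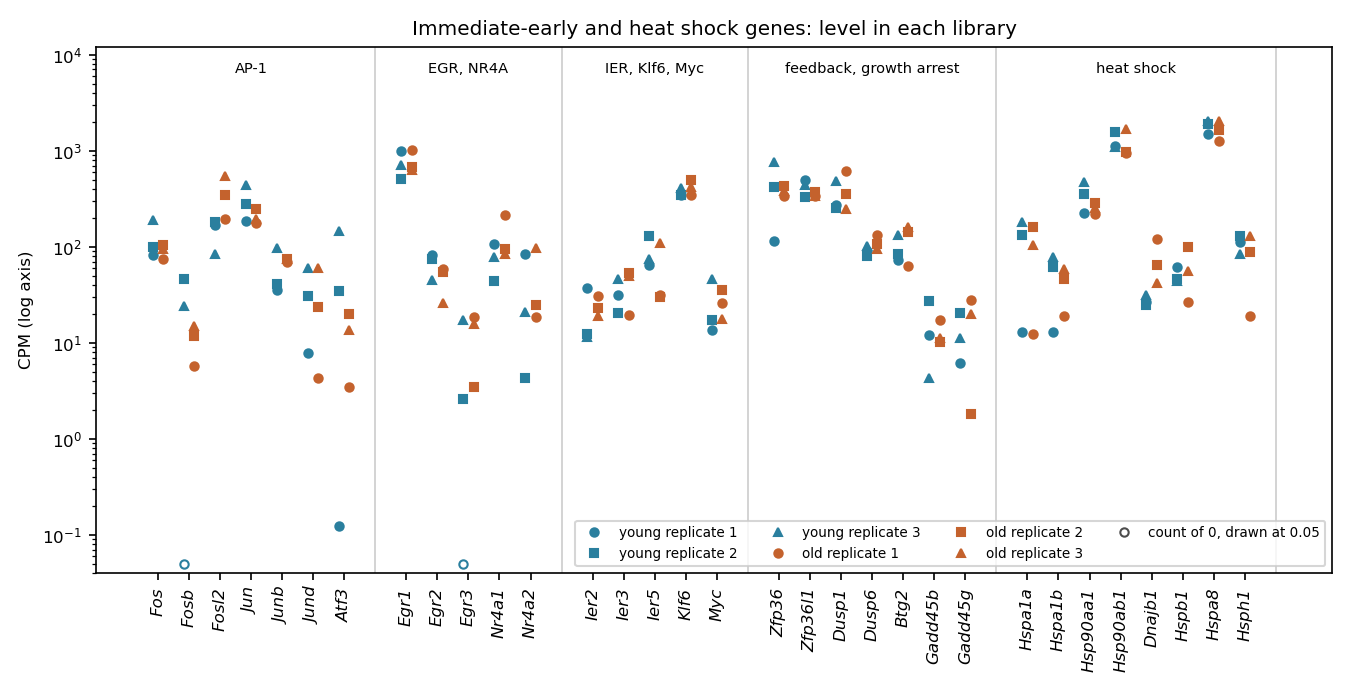
Level of each of the 32 genes in CPM on a logarithmic axis, with 1 point per library, young in blue and old in orange, and the replicate number as the shape. Open circles mark a count of 0, drawn at 0.05 CPM. The points of the 2 ages overlap for every gene except Fosl2 and Dnajb1.

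All 32 genes passed the filter on low counts. Compared per kb of exon, since longer transcripts give more reads, the chaperone genes Hsp90ab1 and Hspa8 stood highest, with means over the 6 libraries of 412 and 402 CPM per kb, and their order changed from library to library. Egr1 followed at 168, Zfp36l1 at 128, Zfp36 at 118 and Dusp1 at 111 CPM per kb. The lowest were Fosb at 2.72 and Egr3 at 2.19 CPM per kb.

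AP-1 is a pair of leucine zipper proteins, usually 1 FOS and 1 JUN. Fos (ENSMUSG00000021250; chromosome 12, 85473890 to 85477273, plus strand, in GRCm38), the founding member, had 81.4, 99.4 and 188 CPM in the young and 75, 105 and 94.3 CPM in the old samples. Young sample 3 was highest and the other 5 libraries lay close together, and the log2 fold change was −0.43 (SE 0.40). Jun, its main partner, had 183, 281 and 441 CPM in the young and 178, 244 and 195 CPM in the old samples, again with young sample 3 highest, and a log2 fold change of −0.55 (SE 0.34). Junb, which can act against Jun, had 35.2, 40.6 and 97.7 CPM in the young and 69.8, 74.2 and 73.6 CPM in the old samples. The 3 old samples lay within a narrow band while the young ones were spread around it. Jund, the JUN gene that depends least on a stimulus, had 7.88, 30.5 and 60.3 CPM in the young and 4.34, 23.5 and 60.7 CPM in the old samples. Sample 1 of each age was low, and within an age the libraries differed by up to 14 times, while the age means were nearly equal.

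Fosb and Atf3 were the AP-1 genes that varied most. Fosb, a close relative of Fos, had 0, 45.6 and 23.9 CPM in the young and 5.69, 11.8 and 15 CPM in the old samples. Its count of 0 in young sample 1 allows up to 0.186 CPM (3 counts, counting error only). Atf3, a repressor induced by cell stress, had 0.124, 34.5 and 146 CPM in the young and 3.44, 20.1 and 13.6 CPM in the old samples, which in young sample 1 were 2 counts. The log2 fold change of Atf3 was the most negative of the 32, at −2.28 (SE 1.55), and it did not pass (edgeR unadjusted p = 0.176). It rested on single libraries: without young sample 1 it was −2.86 (edgeR unadjusted p = 0.0152, adjusted p = 0.843) and without young sample 3 it was −0.49 (edgeR unadjusted p = 0.781). By limma-voom it was −0.20 and with the replicate block −0.44.

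Fosl2 (chromosome 5, 32135801 to 32157842, plus strand), which encodes FRA2, a FOS protein without the activation domain of FOS itself, was the immediate-early gene with the clearest age difference. It had 167, 179.8 and 84.7 CPM in the young and 193, 344 and 544 CPM in the old samples. Every old sample lay above every young one, by a small margin for old sample 1 and a wide one for old sample 3. The means were 144 ± 51.5 CPM (young) and 360.2 ± 176 CPM (old) (SD, 3 samples each), a log2 fold change of 1.33 (SE 0.43), with an edgeR unadjusted p = 0.0134 and adjusted p = 0.822. The lymphatic marker sum was higher and the fibroblast marker sum lower in every old sample too. The summed level of 9 blood endothelial markers was also higher in every old sample, at 717 to 875 CPM in the young and 1329 to 1763 CPM in the old, and the part of these cells in the Fosl2 difference was not tested. The unadjusted p was 0.0691 without old sample 3 and 0.0512 without young sample 3, and over all alternatives the adjusted p ran from 0.219 to 0.9999.

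Within each library, the make-up of the FOS family could be read without comparing depths, a summary chosen after the values were seen. Per kb of exon, Fosl2 gave 32.6, 26.9 and 9.43% of the summed Fos, Fosb, Fosl1 and Fosl2 level in young samples 1, 2 and 3. In old samples 1, 2 and 3 it gave 33.2, 41.7 and 54.4%. The groups did not overlap, although young sample 1 and old sample 1 were almost equal. Fos itself gave 65.6, 61.1 and 86.2% in the young and 53.1, 52.4 and 38.9% in the old samples. By this measure per kb, Fos was the largest component in 5 of the 6 libraries and Fosl2 in old sample 3. In CPM, without division by exon length, the ratio of Fosl2 to Fos was 2.05, 1.81 and 0.450 in the young samples. It was 2.58, 3.28 and 5.76 in the old samples, so Fosl2 then stood above Fos in every library except young sample 3.

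**Figure D2:**
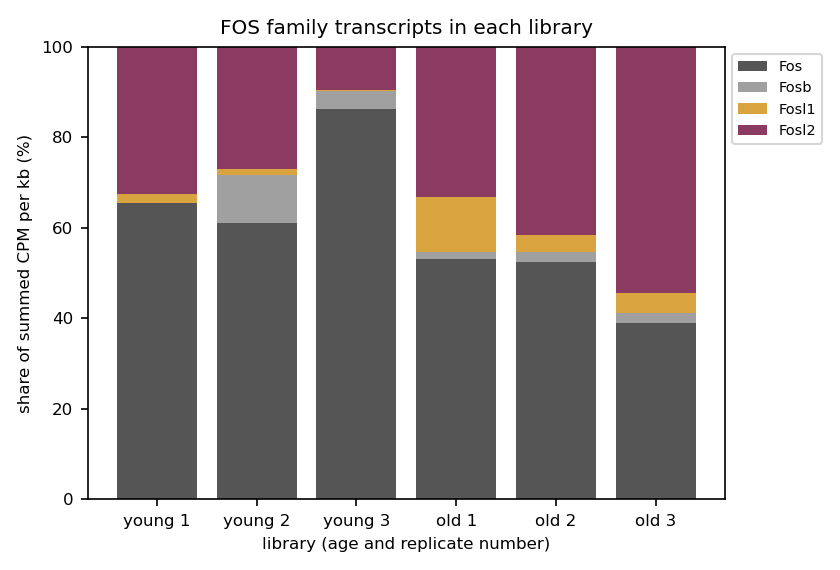
Share of each FOS family gene in the summed CPM per kb of exon, as 1 stacked bar per library, in percent. Fosl2 takes 9.43% to 32.6% in the 3 young and 33.2% to 54.4% in the 3 old libraries, and Fos the larger part of the rest.

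The EGR zinc finger factors and NR4A nuclear receptors are the other early wave of transcription factors. Egr1, which answers to growth factors and shear stress, had the highest mean level per kb of the immediate-early genes, although Zfp36 was higher per kb in young samples 2 and 3, and its groups overlapped. It had 993, 510.4 and 708 CPM in the young and 1012, 678 and 622 CPM in the old samples, with sample 1 of each age highest, and a log2 fold change of 0.064 (SE 0.29). Egr2 had 82.2, 75 and 44.6 CPM in the young and 58.1, 54.5 and 26.1 CPM in the old samples, with old sample 3 lowest and the groups overlapping. Egr3, a less abundant relative, had 0, 2.59 and 17.4 CPM in the young and 18.7, 3.49 and 15.6 CPM in the old samples. Its count in young sample 1 was 0, and each age held both a low and a high library.

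Nr4a1, which encodes NUR77, had 107, 43.9 and 78.2 CPM in the young and 213, 94.6 and 83.3 CPM in the old samples. Old sample 1 stood above the others, and the log2 fold change was 0.77 (SE 0.49) with an edgeR unadjusted p = 0.15. Nr4a2, which encodes NURR1, had 83, 4.27 and 21 CPM in the young and 18.7, 25 and 97.2 CPM in the old samples. It was high in young sample 1 and old sample 3 and low in the other libraries, so that the 3 young samples differed by 19.5 times.

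Ier2, Ier3 and Ier5, immediate early response genes, and the transcription factor genes Klf6 and Myc showed no shared direction, with 4 positive log2 fold changes and 1 negative. Klf6, a Krüppel-like factor of vascular injury, was the steadiest of the 32, at 345, 342 and 405 CPM in the young and 346, 491 and 414 CPM in the old samples, with a log2 fold change of 0.20 (SE 0.22). Ier5, a partner of HSF1 and of the phosphatase PP2A, had 65, 128 and 74.2 CPM in the young and 31.3, 29.9 and 109 CPM in the old samples. Old samples 1 and 2 were below every young sample, and old sample 3 lay among the young ones. Without old sample 3 its log2 fold change went from −0.65 to −1.55 (edgeR unadjusted p = 0.0168, adjusted p = 0.736), whereas it was −0.29 without young sample 2 (edgeR unadjusted p = 0.687), −0.34 without old sample 2 and −0.36 without old sample 1. Ier2 had 37.4, 12.4 and 11.6 CPM in the young and 30.5, 23.2 and 19.1 CPM in the old samples, and Ier3, a regulator of cell survival, 31.2, 20.4 and 45.9 CPM in the young and 19.4, 52.8 and 49.8 CPM in the old samples. Myc, the growth regulator, had 13.5, 17.1 and 45.9 CPM in the young and 25.7, 35.8 and 17.5 CPM in the old samples. For Ier2, Ier3 and Myc the young range enclosed or overlapped the old one.

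None of the genes that end the response had an unadjusted p under 0.05 or groups that stood apart. Zfp36, which encodes tristetraprolin, a protein that binds AU-rich elements and starts message decay, had 116, 418 and 763 CPM in the young and 341, 424 and 385 CPM in the old samples. Young sample 1 was lowest and young sample 3 highest of all 6, a 6.58-fold range within the young, while the old samples differed by 1.24 times. Its relative Zfp36l1 had 492, 326 and 440.4 CPM in the young and 337, 370.3 and 339.6 CPM in the old samples, with a log2 fold change of −0.27 (SE 0.23). Dusp1, the nuclear phosphatase that switches off JNK and p38, had 271, 255 and 479 CPM in the young and 609, 350.2 and 249 CPM in the old samples, with old sample 1 highest. Dusp6, the phosphatase specific for ERK, had 90.1, 80.9 and 102 CPM in the young and 132, 106 and 95.1 CPM in the old samples, a narrow range in all 6 libraries.

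The growth arrest genes also had overlapping groups. Btg2, an antiproliferative partner of the CCR4-NOT deadenylase, had 73.2, 83.3 and 134 CPM in the young and 62.9, 141 and 159 CPM in the old samples, so that old sample 1 was lowest and the other old samples highest of the 6. Gadd45b had 12, 26.9 and 4.28 CPM in the young and 17.3, 10.2 and 11.3 CPM in the old samples, and Gadd45g, the other of the 2 GADD45 stress sensors of the p38 pathway on the list, had 6.08, 20.3 and 11.3 CPM in the young and 27.7, 1.82 and 20.1 CPM in the old samples. Neither showed an order by age: old sample 1 was highest and old sample 2 lowest for Gadd45g.

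**Figure D3:**
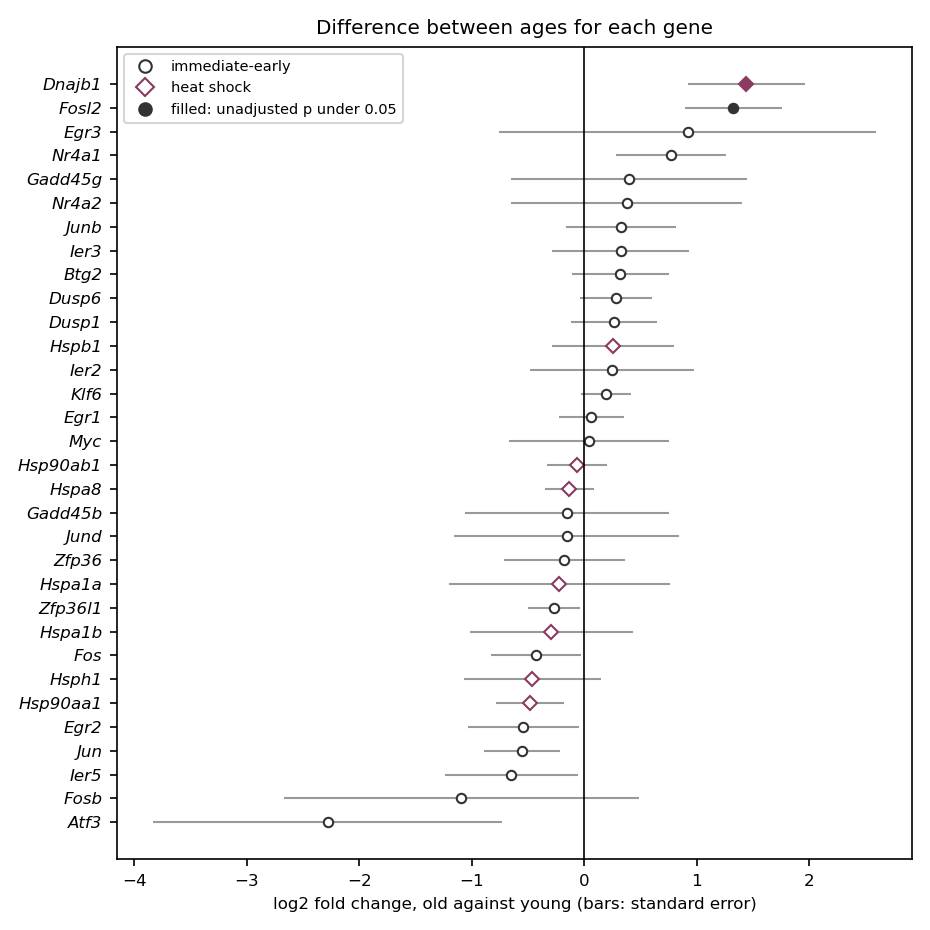
Log2 fold change, old against young, of each of the 32 genes from the edgeR fit, with its standard error as a bar. Circles are immediate-early and diamonds heat shock genes, and filled symbols had an unadjusted p under 0.05, which were Fosl2 and Dnajb1. The 16 positive and 16 negative values lie on both sides of 0.

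Among heat shock genes, Hspa1a and Hspa1b, the 2 inducible HSP70 genes, varied most and showed no order by age. They lie beside each other on chromosome 17 (Hspa1a at 34969190 to 34972156 and Hspa1b at 34956436 to 34959238 in GRCm38, both on the minus strand). Of the 31-base words in the Hspa1a transcripts, 63.8% occur in Hspa1b too, so the split of reads between them is uncertain. Their promoters are nearly the same as well. In the 250 bases before the start site, from RefSeq on GRCm38.p6, the 2 were identical at 247 of 250 positions. These promoters are shown with those of Hspb1, Hsph1, Dnajb1 and Fosl2. Hspb1 and Hsph1 were chosen as the other heat shock genes searched that held a match to the element described next. Hsp90aa1, Hsp90ab1 and Hspa8 had no promoter in the RefSeq table and were not searched. Dnajb1 and Fosl2 were chosen as the members with an unadjusted p under 0.05 by edgeR. All promoters shown are written 5′ to 3′ on the gene's strand. Where the table holds more than 1 start, the one nearest the GENCODE start was used. Capitals mark matches in letters to the heat shock element, to which HSF1 binds, searched as GAANNTTC or TTCNNGAA. Binding of HSF1 at these matches was not tested. Both forms read the same on either strand, and 2 matches may overlap.
Hspa1a (chr17:34972157-34972406, minus strand): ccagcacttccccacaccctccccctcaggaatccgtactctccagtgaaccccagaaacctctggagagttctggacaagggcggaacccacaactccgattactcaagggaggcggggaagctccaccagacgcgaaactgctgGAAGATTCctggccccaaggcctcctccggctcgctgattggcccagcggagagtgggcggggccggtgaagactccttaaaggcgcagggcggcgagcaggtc
Hspa1b (chr17:34959239-34959488, minus strand): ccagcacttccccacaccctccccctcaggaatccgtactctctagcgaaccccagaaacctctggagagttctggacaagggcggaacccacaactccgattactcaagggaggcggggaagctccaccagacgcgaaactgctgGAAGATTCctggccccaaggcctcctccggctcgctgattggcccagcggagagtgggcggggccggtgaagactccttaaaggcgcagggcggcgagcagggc
Hspb1 (chr5:135887669-135887918, plus strand): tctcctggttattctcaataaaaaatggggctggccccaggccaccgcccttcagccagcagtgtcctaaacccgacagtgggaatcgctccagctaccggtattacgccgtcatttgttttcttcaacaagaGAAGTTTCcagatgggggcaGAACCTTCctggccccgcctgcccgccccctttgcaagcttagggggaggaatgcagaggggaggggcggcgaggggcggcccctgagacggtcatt
Hsph1 (chr5:149636337-149636586, minus strand): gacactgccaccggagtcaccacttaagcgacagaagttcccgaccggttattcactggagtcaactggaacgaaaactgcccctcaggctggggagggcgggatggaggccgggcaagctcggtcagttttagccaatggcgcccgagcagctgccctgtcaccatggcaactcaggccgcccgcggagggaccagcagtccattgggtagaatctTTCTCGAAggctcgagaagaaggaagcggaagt
Dnajb1 (chr8:83607925-83608174, plus strand): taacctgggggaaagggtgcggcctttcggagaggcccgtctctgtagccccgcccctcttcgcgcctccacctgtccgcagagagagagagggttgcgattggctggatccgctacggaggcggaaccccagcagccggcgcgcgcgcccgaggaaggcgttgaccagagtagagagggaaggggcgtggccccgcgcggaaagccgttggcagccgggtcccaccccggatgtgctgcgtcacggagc
Fosl2 (chr5:32136222-32136471, plus strand): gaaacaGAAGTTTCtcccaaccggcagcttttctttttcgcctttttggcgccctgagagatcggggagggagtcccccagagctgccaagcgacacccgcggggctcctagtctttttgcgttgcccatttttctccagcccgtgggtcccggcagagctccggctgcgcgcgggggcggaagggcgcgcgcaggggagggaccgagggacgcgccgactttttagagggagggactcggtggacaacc

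A match to either form was present in 12.8% of the 32851 promoter windows of the same length in the RefSeq table. Promoters of 25 of the 32 genes were in that table. Those of Egr1, Egr3, Ier2, Myc, Hsp90aa1, Hsp90ab1 and Hspa8 were not, and could not be searched. Hspa1a and Hspa1b held 1 match each, 104 bases before the start, Hspb1 held 2, and Hsph1, Jun and Fosl2 held 1 each. The Dnajb1 window held no match to these letters, and the Fosl2 start in RefSeq lies 671 bases from that in GENCODE. The other motifs searched were the cAMP response element TGACGTCA, found in the windows of Dusp1 and Btg2 and in 1.55% of all windows, the AP-1 site TGANTCA, found in that of Zfp36l1 and in 6.75%, and the CArG box of SRF, found in that of Zfp36 and in 1.47%. All of these read the same on both strands. The RefSeq start lies 1025 bases from the GENCODE gene start for Zfp36 and 53656 bases from it for Dusp1. Among windows with no match, the distance was 34706 bases for Atf3, 12577 for Nr4a1 and 1210 for Jund.

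Hspa1a had 12.8, 132 and 179 CPM in the young and 12.3, 161 and 104 CPM in the old samples, and Hspa1b had 12.8, 61.3 and 78.1 CPM in the young and 18.9, 46.5 and 58.8 CPM in the old samples. Sample 1 of each age was low for both genes and the other 4 libraries were high. The sum of the pair, which does not depend on the split of reads, was 25.6, 193 and 257 CPM in the young and 31.2, 208 and 163 CPM in the old samples. Hspa1a thus ranged 14-fold within the young and 13.1-fold within the old samples, against a log2 fold change between the ages of −0.22 (SE 0.98). For Hspa1b it was −0.29 (SE 0.73). Both log2 fold changes became positive without young sample 3, at 0.35 and 0.15, and without old sample 1, at 0.29 and 0.050.

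Dnajb1 (chromosome 8, 83608193 to 83612653, plus strand), the HSP40 co-chaperone that hands clients to HSP70, did not follow Hspa1a. Of the 8 heat shock genes Dnajb1 had the smallest unadjusted p by edgeR. It had 26.9, 24.9 and 31.6 CPM in the young and 121, 64.2 and 41.4 CPM in the old samples. The 3 young samples were nearly equal, every old sample was higher, and old sample 1, one of the lowest for Hspa1a, was the highest. The means were 27.8 ± 3.45 CPM (young) and 75.6 ± 41 CPM (old) (SD, 3 samples each), a log2 fold change of 1.44 (SE 0.52), with an edgeR unadjusted p = 0.0224 and adjusted p = 0.880. The marker sums named beside Fosl2 separate the ages in the same way, and 9 pericyte and smooth muscle markers had their highest sum, 1952 CPM, in old sample 1, against 620.4 to 1150.3 CPM in the other libraries. The part of these cells in the Dnajb1 difference was not tested. Without old sample 1 the log2 fold change was 0.92 with an unadjusted p of 0.112. Leaving out young sample 1 or 2, limma-voom and the replicate block also gave an unadjusted p above 0.05, and over all alternatives the adjusted p ran from 0.214 to 0.9999.

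For the other chaperone genes the ages overlapped. Hspa8, the constitutive HSP70, had 1475, 1894 and 2049 CPM in the young and 1265, 1638 and 2047 CPM in the old samples, with a log2 fold change of −0.13 (SE 0.21). Hsp90ab1, the constitutive HSP90, had 1114, 1579 and 1100.0 CPM in the young and 950.2, 974 and 1697 CPM in the old samples, with a log2 fold change of −0.067 (SE 0.27). Hsp90aa1, the inducible HSP90, had 224, 356 and 473 CPM in the young and 219, 283 and 251 CPM in the old samples. Young samples 2 and 3 were above every other library, and the log2 fold change was −0.48 (SE 0.30). It was −0.72 without young sample 1 (edgeR unadjusted p = 0.0263, adjusted p = 0.863) and −0.22 without young sample 3 (edgeR unadjusted p = 0.518). The estimates for these 3 genes are uncertain to the degree that other transcripts, mostly of pseudogenes, hold their 31-base words, which was 43.5% for Hspa8, 51.4% for Hsp90aa1 and 13.2% for Hsp90ab1.

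Hsph1, an HSP110 that resets HSP70, had 111, 130.4 and 84.5 CPM in the young and 18.8, 87 and 131 CPM in the old samples. Old sample 1 was far below the other 5 libraries, and without it the log2 fold change went from −0.46 to 0.0037. Hspb1, the small heat shock protein HSP27, had 60.8, 46.3 and 43.9 CPM in the young and 26.4, 98.4 and 55.9 CPM in the old samples, with old sample 1 lowest and old sample 2 highest, and it shares 52.3% of its 31-base words with a pseudogene.

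Libraries of the same age differed from each other in ways that several of the genes shared. Young sample 3 was the highest library for 10 of the 32 genes, against 14.3% of all genes, and old sample 1 the lowest for 11, against 25%. Among heat shock genes old sample 1 was lowest for 6 of 8. Each library's median deviation from the genes' own means over the 6 libraries, in log2 CPM, was −0.80, 0.23 and 0.88 in young samples 1, 2 and 3 and −0.43, 0.28 and 0.41 in old samples 1, 2 and 3 for the 7 AP-1 genes. For the 5 EGR and NR4A genes the same medians were 0.44, −0.65 and −0.24 in the young and 0.47, −0.083 and −0.15 in the old samples. By these medians the samples numbered 1 were the low ones for AP-1 genes and the high ones for EGR and NR4A genes. The 7 feedback and growth arrest genes had −0.36, −0.22 and 0.21 in the young and 0.40, 0.012 and −0.068 in the old samples. Ier2, Ier3, Ier5, Klf6 and Myc had −0.11, −0.46 and 0.23 in the young and −0.16, 0.34 and 0.098 in the old samples. In neither of these groups were the samples numbered 1 both the lowest or both the highest. For the 8 heat shock genes the medians were −0.29, 0.35 and 0.17 in the young and −0.69, 0.20 and 0.38 in the old samples. All 24 immediate-early genes together had −0.34, −0.23 and 0.31 in the young and −0.10, 0.061 and 0.10 in the old samples. Over all genes tested the medians stayed between −0.048 and 0.12, but the scaling of the libraries itself holds them near 0. They are therefore no background for medians of so few genes.

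**Figure D4:**
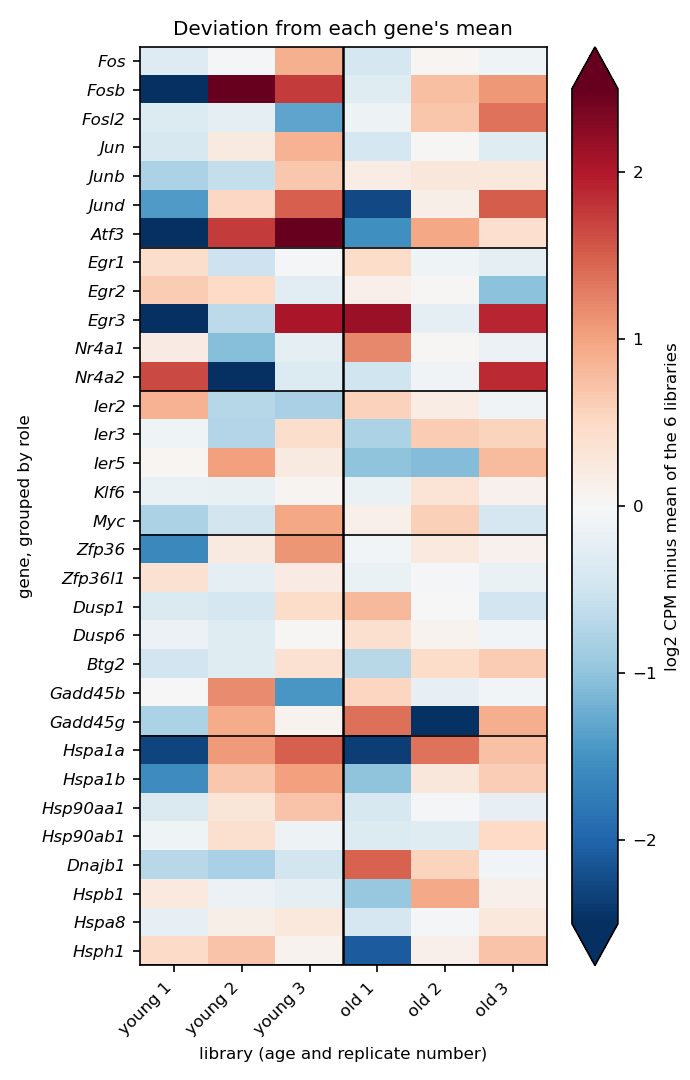
Log2 CPM of each gene in each library minus that gene's mean over the 6 libraries, in colour from blue (below the mean) to red (above), with genes grouped by role and the black vertical line between the ages. Young sample 1 and old sample 1 are blue for Atf3, Fosb, Jund, Hspa1a and Hspa1b, and no block of genes separates the ages.

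Some of the genes, not all, stood lowest in the 2 libraries with the lowest macrophage marker sums. Young sample 1 and old sample 1 were the 2 lowest libraries for 11 of the 32 genes, Fos, Fosb, Jun, Jund, Atf3, Zfp36, Btg2, Hspa1a, Hspa1b, Hsp90aa1 and Hspa8, which is 34.4%, against 10.3% of all genes tested. This pair was chosen after the values were seen. Atf3 followed the order of the macrophage sums except for an exchange of the lowest 2 libraries. Neutrophil and mast cell markers were low in the same libraries, with sums of 1.99, 59.2 and 33.2 CPM for young replicates 1 to 3 and 2.17, 11.6 and 187 CPM for the old replicates. So were neuron and glia markers, at 55.5, 121 and 86.3 CPM in the young and 14.7, 196 and 98.2 CPM in the old replicates. Erythroid and platelet markers were lowest in old sample 1 alone (3.74 CPM), and lymphocyte and plasma cell markers in young sample 1 (21.7 CPM). The order of the macrophage sums was not shared by all genes. Old sample 1 was the highest library for 7 of the 32 (21.9%, against 22.5% of all genes), among them Egr1 and Nr4a1. Young sample 1 was highest for 3 (9.38%, against 17.2%). Young sample 2, with the second highest macrophage sum, was lowest for 7 (21.9%, against 12.7%). Jund was highest in old sample 3, which had the third lowest macrophage sum. The part of any of these cell types in the levels was not tested. With young sample 1 and old sample 1 both left out, an alternative chosen after seeing the data, edgeR again called none of the 32 genes. It counted 3 without adjustment, which were Fosl2, Atf3 and Hsp90aa1. Of all genes it counted 1113 in that setting, against 856 with every sample kept, the filter being run anew.

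**Figure D5:**
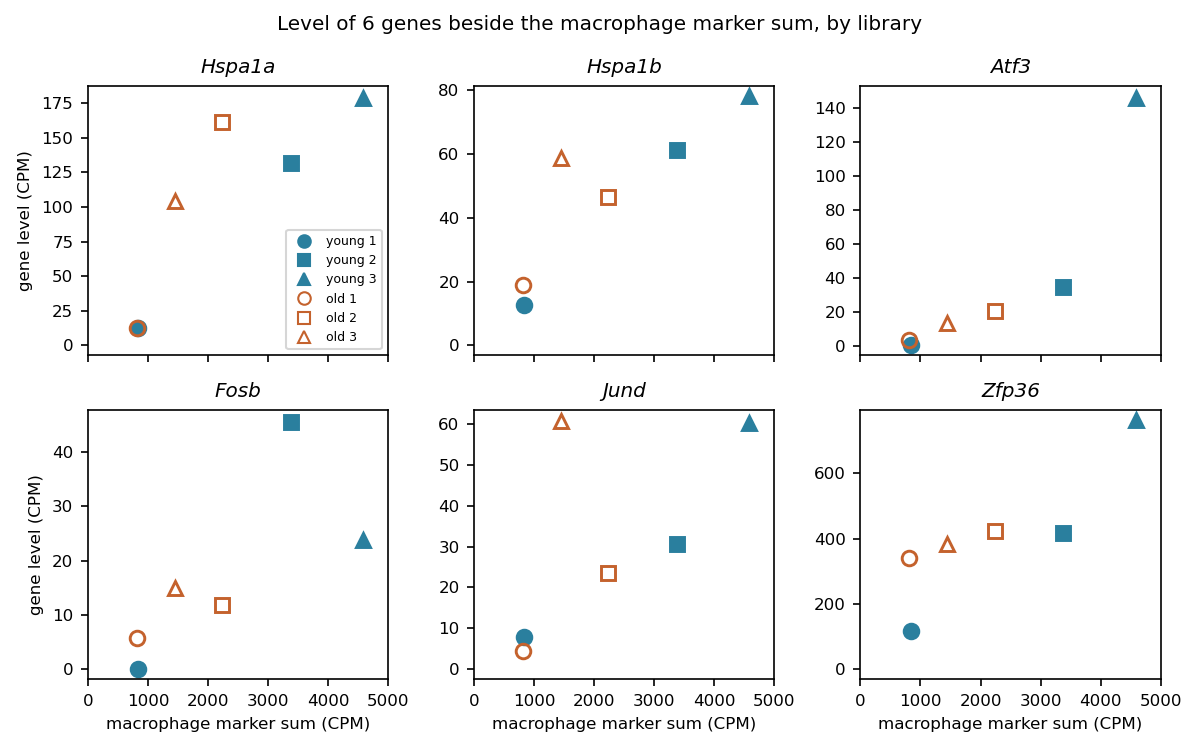
Level of 6 genes in CPM against the summed CPM of 12 macrophage and microglia markers, with 1 point per library, young filled and old open. The genes were chosen after their values were seen. The 2 libraries with sums of 834 and 815 CPM hold the lowest levels of all 6 genes.

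Other genes of the same pathways did not pass adjustment either, and those counted in what follows had an unadjusted p under 0.05 by edgeR. In every old sample the lymphatic marker sum was higher and the fibroblast marker sum lower than in the young samples. The part of cell content in the differences of these pathway genes was not tested. Of 42 further immediate-early genes 38 were tested, 25 with a positive log2 fold change and a median of 0.27, and 5 were counted, all higher in the old samples. That is 13.2%, against 5.56% of all genes. Nr4a3, the third NR4A receptor gene, had 48, 50.8 and 39.9 CPM in the young and 73, 115 and 194 CPM in the old samples, with no overlap and a log2 fold change of 1.46 (SE 0.43), an unadjusted p of 0.00869 and an edgeR adjusted p = 0.761. Fosl1, the FOS relative FRA1, had 1.99, 1.98 and 0.450 CPM in the young and 14.8, 6.47 and 9.13 CPM in the old samples, also with no overlap. Errfi1, a feedback inhibitor of the EGF receptor, had 595, 295 and 168 CPM in the young and 938, 677 and 660.3 CPM in the old samples, and every old sample was above every young one. Trib1, a pseudokinase, and Irf1, an interferon-induced factor, rested on old sample 1. Their values there were 465 and 249 CPM, against 134 to 177 and 18.5 to 67.4 CPM in the other old samples and 117 ± 22.6 and 28.9 ± 4.19 CPM in the young.

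Upstream of the immediate-early genes, 19 kinases and SRF partners were tested, 11 with a positive log2 fold change. Of these 19, 3 (15.8%, against 5.56% of all genes) were counted, 1 higher and 2 lower in the old samples. Mapk14, which encodes the stress-activated kinase p38 alpha, had 84, 85.1 and 87.8 CPM in the young and 46.2, 36.5 and 40.2 CPM in the old samples, lower in every old sample, with a log2 fold change of −1.06 (SE 0.38), an unadjusted p of 0.0219 and an edgeR adjusted p = 0.867. Rps6ka1, the ERK-driven kinase RSK1, had 25.8, 47.8 and 36.6 CPM in the young and 6.29, 6.18 and 3.86 CPM in the old samples, likewise without overlap, with an edgeR adjusted p = 0.687. Elk3, an SRF partner of endothelium, had 364, 391 and 392 CPM in the young and 588, 461 and 608 CPM in the old samples and was higher in every old sample.

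Of 27 further heat shock factors and cytosolic or mitochondrial chaperones, 14 had a positive log2 fold change, with a median of 0.041. Only 1 (3.7%, against 5.56% of all genes) was counted. This was Dnajb5, another HSP40, with 36.4, 46.6 and 57 CPM in the young and 94.8, 105 and 116 CPM in the old samples, no overlap and a log2 fold change of 1.17 (SE 0.37) (edgeR adjusted p = 0.813). None of 17 endoplasmic reticulum chaperone and stress genes was counted, and 12 had a negative log2 fold change, with a median of −0.099. The smallest p there belonged to Atf6, a stress sensor of that compartment, with 71.1, 152 and 190.2 CPM in the young and 89.7, 57.5 and 65.5 CPM in the old samples, and Dnajb11, an HSP40 of its lumen, with 125, 107 and 104 CPM in the young and 59.7, 69 and 79 CPM in the old samples. None of 8 genes of AU-rich element binding and deadenylation was counted, with a median of −0.34. Cnot8 and Cnot7, deadenylase subunits, had the smallest p, with means of 44.9 ± 16.8 CPM (young) and 9.84 ± 8.39 CPM (old) for Cnot8 and 63.5 ± 32.2 CPM (young) and 33.4 ± 35.6 CPM (old) for Cnot7.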

How the data were processed

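Sorted meningeal lymphatic endothelial cells of 3 young and 3 old samples were sequenced, and groups were taken from the labels. FastQC, Salmon and mm10 appear in the submitters' processing notes without version or role. The deposited values are estimated counts per gene, already whole numbers. How transcripts were summed to genes, on which annotation, and whether reads were stranded is unknown here. Identifiers were matched to GENCODE M21 (GRCm38), whose union exon length gave CPM per kb, and promoters to RefSeq.

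The age comparison used the quasi-likelihood test of edgeR 4.0.16 (R 4.3.3) in its robust form, after TMM scaling. Its filterByExpr filter (minimum count 10, minimum total 15) left 15394 of 22964 genes, and Benjamini-Hochberg adjustment ran over these at a threshold of 0.05. Standard errors are the log2 fold change divided by the square root of its F. Log2 CPM used a prior count of 2. Alternatives used DESeq2 1.42.0, limma 3.58.1, other scalings and filters, a replicate block and each sample left out. The fits were tested on simulated data. The members, lists and tests were chosen with earlier results of these data known. All 32 members are named, and from each pathway list the genes at an unadjusted p under 0.05 or, with none, the 2 of smallest p. No pair of libraries agreed within sampling noise (chi-square per degree of freedom of at least 103).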

Additional observations from a re-analysis of the deposited data

How the results depend on the processing

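With 3 samples per age and wide scatter, small age differences of these genes were not detectable, least of all for Egr3, Fosb and Atf3, whose standard errors were the largest. None of the 32 genes passed the adjusted threshold in any of the 14 alternatives, and 14 genes kept the sign of their log2 fold change in all of them. Over all genes DESeq2 called 130, limma-voom 3, and leaving out 1 sample 0 to 1, where edgeR called 0. Members at an unadjusted p under 0.05 numbered 1 by limma-voom, 1 with the replicate block, and 1 to 4 with 1 sample left out. At that threshold all genes numbered 856, against 1374 by DESeq2, 983 by limma-voom and 1543 without the filter. With 1 sample left out they numbered 696 to 1396, the most without old sample 2. These counts have unlike totals: without the filter all 22964 genes were tested, against 15394, and the filter was run anew with a sample left out. The labels name no batch. Deviations of same-numbered samples correlated at 0.079, 0.053 and −0.012, the first being the largest of any young and old pair. Not every sample correlated best with its own number, and the replicate block counted 712 genes. Whether same-numbered samples shared a batch cannot be told from these values. Log2 fold changes turned sign for Fosb at 1.38 by limma-voom and 0.28 with the replicate block, Zfp36 at 0.077 and 0.18, and Gadd45b at 0.20 and 0.20 in the same settings. Gadd45g turned to −0.10 by limma-voom, while scaling by library size alone turned Egr1 to −0.082 and Myc to −0.10. When young sample 1 and old sample 1 were both left out, Egr3 was −0.046, Myc −0.24, Dusp1 −0.29, Gadd45g −0.51, Hsp90ab1 0.0014 and Hsph1 0.024. With 1 sample, or that pair, left out, the log2 fold change ran from −0.65 to 0.0063 for Fos, −1.24 to 0.62 for Jund, −0.18 to 0.34 for Egr1, −0.046 to 3.26 for Egr3, −0.72 to 2.29 for Nr4a2, −0.049 to 1.01 for Ier2, −0.26 to 0.77 for Myc, −0.62 to 0.51 for Zfp36, −0.29 to 0.60 for Dusp1, −0.60 to 0.65 for Gadd45b, −0.51 to 0.93 for Gadd45g, −0.89 to 0.35 for Hspa1a, −0.75 to 0.15 for Hspa1b, −0.40 to 0.12 for Hsp90ab1, −0.29 to 0.77 for Hspb1, −0.32 to 0.027 for Hspa8 and −1.04 to 0.024 for Hsph1. The cause of these changes was not tested.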

Other observations

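Jun was the largest component of the JUN family in every library. Per kb of exon, Jun gave 74.2, 71 and 63.7% of the summed Jun, Junb and Jund level in young samples 1, 2 and 3, and 62.9, 62.3 and 47.2% in old samples 1, 2 and 3. Junb gave 19.8, 14.2 and 19.6% in the young and 34.2, 26.2 and 24.7% in the old samples, so that for both shares the ages did not overlap. These shares were chosen after the values were seen and were not tested. The ratio of Hspa1a to Hspa1b was 1.00, 2.15 and 2.29 in the young and 0.648, 3.46 and 1.77 in the old samples, lowest in sample 1 of each age, where the pair was lowest. This ratio depends on the uncertain split of reads between the 2 genes, since 63.8% of the Hspa1a words occur in Hspa1b. In young sample 1 both genes had the same estimated count, 206. By level, the median SD within an age was 1.39 log2 units for the 10 members of 10 to 50 CPM, against 0.995 for all genes of that level, 0.607 against 0.536 for the 11 of 50 to 200 CPM, and 0.419 against 0.328 for the 10 of 200 CPM or more.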
